A study of Arabidopsis thaliana with 16 samples.

Results

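The genotype by light interaction asks, gene by gene, whether low light changed a transcript differently in the bhlh89,91 double mutant than in Col-0. It was computed as the low minus normal light difference in bhlh89,91 minus the same difference in Col-0, on the log2 scale. All 16 libraries entered, and 20471 of 33681 genes were tested because they reached at least 1 CPM, a count scaled to the size of its library, in at least 4 libraries. A negative value means that low light raised the gene less, or lowered it more, in bhlh89,91. A positive value means the reverse.

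The bhlh89,91 line combines a T-DNA insertion in bHLH89 (SALK-123106) with one in bHLH91 (GK-345C06), both in the first exon, and Col-0 is the wild-type accession it is set against. Both genotypes were grown in 16 h days and moved to their light treatment at the onset of flowering. Low light was made with net shading at 53 (±5.0 SD) µmol/m2/s, and normal light was 205 (±8.6 SD) µmol/m2/s, nominally 50 and 200. RNA came from whole flower buds with anthers of stages 1 to 10, before pollen mitosis, and each of the 4 combinations had 4 libraries. The mutant is a single combination of 1 allele per gene, and whole buds hold sepals, petals, pistil and anthers together.

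bHLH89, bHLH91 and the related bHLH10 are transcription factors of the tapetum, the inner layer of the anther wall. The tapetum nourishes the developing microspores, makes the precursors of the sporopollenin wall, and late in its life supplies the lipids, proteins and phenolamides of the pollen coat before it degenerates. In a whole-bud sample, fewer tapetal cells and less RNA per tapetal cell cannot be told apart.

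The targeted genes were still detected in the mutant. bHLH89 stood at 11.1, 15.7, 16.2 and 19.7 TPM (a level scaled to transcript length and library size, here listed in ascending order) in bhlh89,91 in low light and at 18.6, 22.7, 23.2 and 24.5 TPM in bhlh89,91 in normal light. It stood at 27.7, 28.7, 29.4 and 32.7 TPM in Col-0 in low light and at 41.5, 42.5, 48.4 and 51.3 TPM in Col-0 in normal light. Within each light condition the genotypes did not overlap, and in normal light the difference was −1.03 ± 0.125 (log2 fold change, log2FC, ± SE; adjusted p = 8.26e-05). bHLH91 differed less, by −0.39 ± 0.117 in normal light (adjusted p = 0.0297). Neither had a called interaction, with 0.14 ± 0.179 for bHLH89 (adjusted p = 0.609) and 0.04 ± 0.167 for bHLH91 (adjusted p = 0.889), nor did bHLH10, with 0.10 ± 0.153 (adjusted p = 0.677). A T-DNA line can still transcribe parts of the gene, so RNA levels alone do not test the genotype. The study also measured both genes in inflorescences of this line by qRT-PCR, a targeted RNA assay. It reported both as knocked down under normal growth conditions, bHLH91 far more strongly than bHLH89.

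Libraries held between 20419619 and 23346158 estimated counts. The first principal component took 51.8% of the variance and placed the Col-0 low light libraries at 69.8 to 73.2, and the other 12 libraries at −60 to 9.1. Some libraries stood apart from their group, and they are named here by the number of their file column. The summed level of 4 phenolamide genes and the flavonol glycoside transporter FST1 was 137 TPM in normal light library 4 of bhlh89,91, against 489 to 532 TPM in libraries 1 to 3. It was 65.3 TPM in normal light library 4 of Col-0, against 195 to 312 TPM in the other libraries of that group. Low light library 4 of bhlh89,91 was the lowest of its group for ethylene response and cold factors, at 639 TPM against 728 to 918 TPM. Values without these libraries are given below for the groups named here.

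A gene was called an interaction DEG at an adjusted p under 0.01 (edgeR quasi-likelihood test, Benjamini-Hochberg over all tested genes) and an absolute log2FC of at least 1. This rule called 487 genes, 2.38% of those tested. Of these, 364 were negative (1.78%) and 123 were positive (0.601%). At an adjusted p under 0.05 with no size limit, 2312 genes were negative (11.3%) and 2624 positive (12.8%), 4936 in all (24.1%). Which sign held more calls at that threshold turned with the test, as limma-trend on log2(TPM + 0.1) called 2414 negative and 2152 positive genes. At that threshold 1765 negative and 2348 positive genes lay below an absolute log2FC of 1, whereas 47 negative and 16 positive genes reached 4 or more. Gene groups below are counted at an adjusted p under 0.05, to be read against 11.3% and 12.8%.

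**Figure D1:**
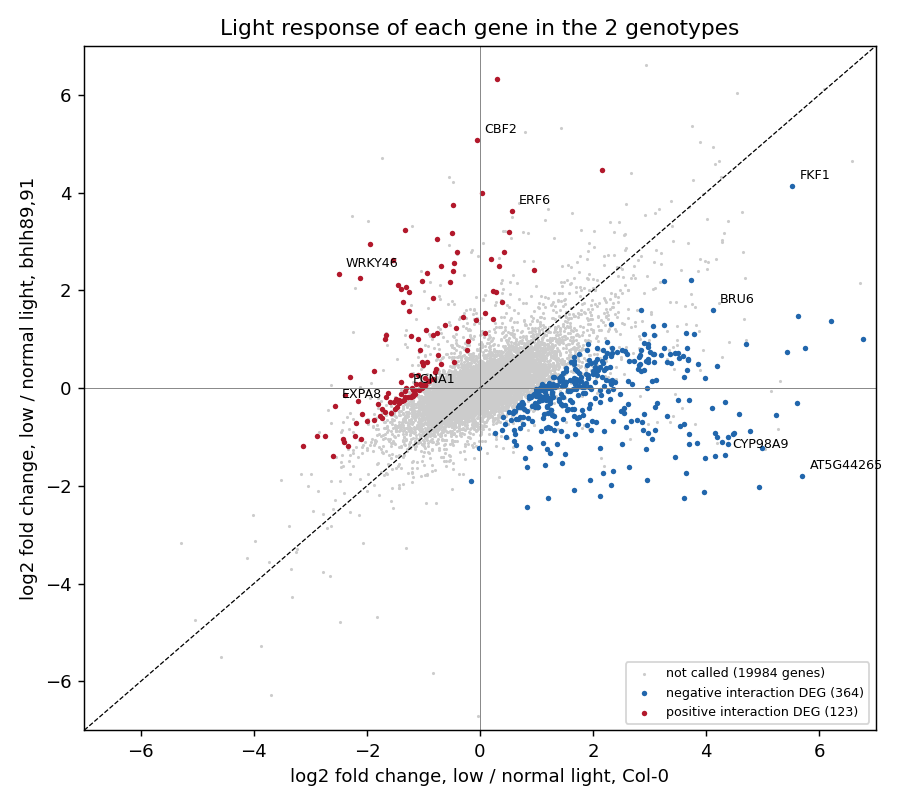
Log2 fold change of low over normal light in bhlh89,91 (vertical) against that in Col-0 (horizontal), 1 point per tested gene, with the 364 negative interaction DEGs in blue and the 123 positive ones in red. Blue points lie mostly to the right of 0 near the horizontal axis, and 11 genes, none a DEG, lie outside the axes at 7.

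Negative interaction DEGs were chiefly genes that low light raised in Col-0 but left without a called rise in bhlh89,91. Their median light response was −0.105 in bhlh89,91 and 1.85 in Col-0 (log2FC), and Col-0 had the larger absolute response in 338 of 364 (92.9%), against 69.0% of all tested genes. With responses called at an adjusted p under 0.05, which over all genes found 17.4% higher and 16.7% lower in low light in bhlh89,91 and 29.3% higher and 29.9% lower in Col-0, 257 of the 364 (70.6%) rose in Col-0 with no call in bhlh89,91. Another 62 (17.0%) rose in Col-0 and fell in bhlh89,91, 39 (10.7%) rose in both genotypes, and 6 (1.65%) fell in bhlh89,91 with no call in Col-0. These classes are a description, since the same libraries define the interaction.

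Positive interaction DEGs were more mixed. Their median light response was 0.27 in bhlh89,91 and −1.18 in Col-0. Low light lowered 50 of 123 (40.7%) in Col-0 with no call in bhlh89,91, raised 33 (26.8%) in bhlh89,91 with no call in Col-0, lowered 19 (15.4%) in both, and lowered 19 (15.4%) in Col-0 while raising them in bhlh89,91. The remaining 2 (1.63%) rose in both. So 62 of the negative and 19 of the positive interaction DEGs had called responses of opposite sign.

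Both classes lay apart mainly in low light. Of the 364 negative interaction DEGs, 248 (68.1%) were lower in bhlh89,91 in low light with no genotype call in normal light, 81 (22.3%) were lower in low light and higher in normal light, 17 were lower in both, and 18 were higher in normal light alone. Of the 123 positive ones, 92 (74.8%) were higher in bhlh89,91 in low light with no call in normal light. Over all genes, the genotype contrast called 25.9% higher and 24.7% lower in low light and 9.0% higher and 8.26% lower in normal light.

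The filter bears on a few members. Of the negative interaction DEGs, 18 reached 1 CPM in the 4 Col-0 low light libraries only, and 3 positive ones did so in the 4 bhlh89,91 low light libraries only, so these had to differ. A further 191 genes reached 1 CPM in exactly 3 libraries and were not tested, while 188 reached it in exactly 4 and were.

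Genes of tapetal phenolamides, spermidine conjugated to hydroxycinnamic acids and deposited in the pollen coat, were called negative. The list held 4 genes of this pathway and FST1, which carries flavonol glycosides to the pollen surface, and all 5 were negative interaction DEGs, with a median of −4.63 against 0.00791 over all tested genes. All 5 are also among the 23 male fertility genes that the study drew from these same libraries. The study picked those for a rise in Col-0 in low light that bhlh89,91 lacked, so the calls of this list are not independent of that choice. CYP98A8 (AT1G74540), a cytochrome P450 that hydroxylates the conjugates, had 2.96, 4.21, 5.65 and 7.44 TPM in bhlh89,91 in low light and 5.48, 20.7, 23.9 and 25.5 TPM in bhlh89,91 in normal light. Col-0 held 119, 176, 206 and 220 TPM of it in low light and 6.24, 16.6, 29.2 and 41.8 TPM in normal light. The 4 Col-0 low light libraries lay far above all the others, and the mutant in low light did not share that rise. The interaction was −4.84 ± 0.708 (adjusted p = 0.000311), from a light response of −1.89 in bhlh89,91 (adjusted p = 0.0117) and of 2.96 in Col-0 (adjusted p = 7.85e-05).

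CYP98A9 (AT1G74550), its neighbour on chromosome 1 and another hydroxylase of the pathway, had 2.73, 3.49, 4.71 and 9.43 TPM in bhlh89,91 in low light and 2.96, 7.35, 18.9 and 23.9 TPM in bhlh89,91 in normal light. It had 38.0, 45.8, 86.9 and 98.2 TPM in Col-0 in low light and 1.25, 1.71, 2.39 and 8.09 TPM in Col-0 in normal light. Again only Col-0 in low light stood clear of the other 3 groups, and the interaction was −5.70 ± 0.89 (adjusted p = 0.000487). SHT (AT2G19070), the acyltransferase that builds the spermidine conjugates, averaged 30.2 ± 14.8 TPM in bhlh89,91 in low light and 112 ± 53.2 TPM in bhlh89,91 in normal light, against 209 ± 44.6 TPM in Col-0 in low light and 54.9 ± 30.6 TPM in Col-0 in normal light (SD, n = 4 each). Its interaction was −3.83 ± 0.699 (adjusted p = 0.00138). TSM1, a tapetal O-methyltransferase of the pathway, had −3.66 ± 0.585, and the transporter FST1 had −4.63 ± 0.893, which is also the median of the list (adjusted p = 0.000563 and 0.00195). Without both bhlh89,91 libraries in column 4, all 5 genes of the list were still called negative. The same held without the 3 normal light libraries lowest in the summed levels of this list and of the pollen coat list. Those 3 were library 4 of bhlh89,91 and libraries 1 and 4 of Col-0. Both settings were chosen after the values were seen.

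Pollen coat proteins followed the same course. Of 11 tested genes of this list, 7 were called negative (63.6%), none positive, and the median was −4.06, or −5.99 without normal light library 3 of Col-0. EXL4, EXL5, EXL6 and BGLU20, named below, are in the same selection by the study, so their calls are not independent of it either. EXL5 (AT1G75920), an extracellular lipase of the coat, had 1.23, 2.36, 2.45 and 5.32 TPM in bhlh89,91 in low light and 1.05, 3.03, 9.66 and 11 TPM in bhlh89,91 in normal light. It had 27.8, 35.7, 55.6 and 58.5 TPM in Col-0 in low light and 1.07, 1.18, 2.29 and 4.62 TPM in Col-0 in normal light, so that the low light Col-0 libraries did not overlap any other group. Its interaction was −5.39 ± 0.845 (adjusted p = 0.000503). The adjacent EXL6, another coat lipase, and BGLU20, a tapetal beta-glucosidase, had −5.65 ± 1.29 and −4.95 ± 0.988 (adjusted p = 0.00549 and 0.00239). EXL4 had the largest value of the list, −6.29 ± 1.97 (adjusted p = 0.03), but 1 Col-0 normal light library held 83.5 TPM against 0.288 to 0.842 TPM in the other 3, and the call was lost in 5 of 16 fits that left out 1 library (adjusted p 0.0535 to 0.0694). Reads of tandem copies such as the EXL genes may be divided between them by the mapper.

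Genes of less known function carried several of the largest values. AT1G20130, a GDSL lipase, had 18.4, 45.5, 68.4 and 75.1 TPM in bhlh89,91 in low light and 8.98, 127, 154 and 199 TPM in bhlh89,91 in normal light. Col-0 had 567, 876, 1030 and 1080 TPM in low light and 0.642, 4.56, 43.6 and 63.3 TPM in normal light. Here the normal light libraries were widely spread in both genotypes, and the interaction was −6.22 ± 1.33 (adjusted p = 0.00359). In the GDSL family, 6 of 50 tested members were negative (12%) and 16 positive (32.0%). AT5G44265, annotated as a lipid transfer protein, had the lowest value among the genes held in every fit without 1 library, −7.51 ± 1.17 (adjusted p = 0.000487), at 1.65 ± 0.759 and 5.86 ± 5.11 TPM in bhlh89,91 in low and normal light and at 52.7 ± 23.0 and 0.949 ± 1.79 TPM in Col-0 in low and normal light (SD, n = 4 each). Of 52 tested lipid transfer proteins, 8 were negative (15.4%) and 14 positive (26.9%). The positive count was 9 without low light library 3 of Col-0 or low light library 2 of bhlh89,91. It was also 9 without the 3 normal light libraries lowest in the phenolamide and pollen coat sums. Others named by the same rule were AT1G26710 (−6.09), AT3G15670 (−5.91), the tetraspanin TET11 (−5.86), the cytokinin hydroxylase CYP735A2 (−5.55), AT1G68875 (−5.53), the iron transporter IRT1 (−5.41), AT4G37900 (−5.40) and AT1G06990 (−5.39). AT3G15670 had 6.82 to 21.8 TPM in Col-0 in low light and 0.567 TPM or less in every library of the other groups. The filter may have admitted it through Col-0 in low light alone, in which case it had to differ. In AT2G35730 (−4.86) and AT3G26820 (−4.32), as in CYP98A8, low light lowered the transcript in bhlh89,91 and raised it in Col-0.

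Among proteins of the DUF220 family, 5 of 10 tested members were called negative (50.0%) and the median was −3.13. The count was 3 without normal light library 2 of bhlh89,91 and with DESeq2, and the median was −6.16 without normal light library 3 of Col-0. AT1G23580 had −6.97 ± 1.47 (adjusted p = 0.00346), at 0.0663 to 0.543 TPM in bhlh89,91 in low light, 0.0 to 2.32 TPM in bhlh89,91 in normal light, 10.7 to 23.4 TPM in Col-0 in low light and 0.0 to 2.16 TPM in Col-0 in normal light. Several members are tandem copies on chromosome 1 whose reads may be shared. Of 23 genes that the study listed for male fertility from these same libraries, 18 were called negative and none positive (78.3%), with a median of −2.53, which is not independent of that choice.

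**Figure D2:**
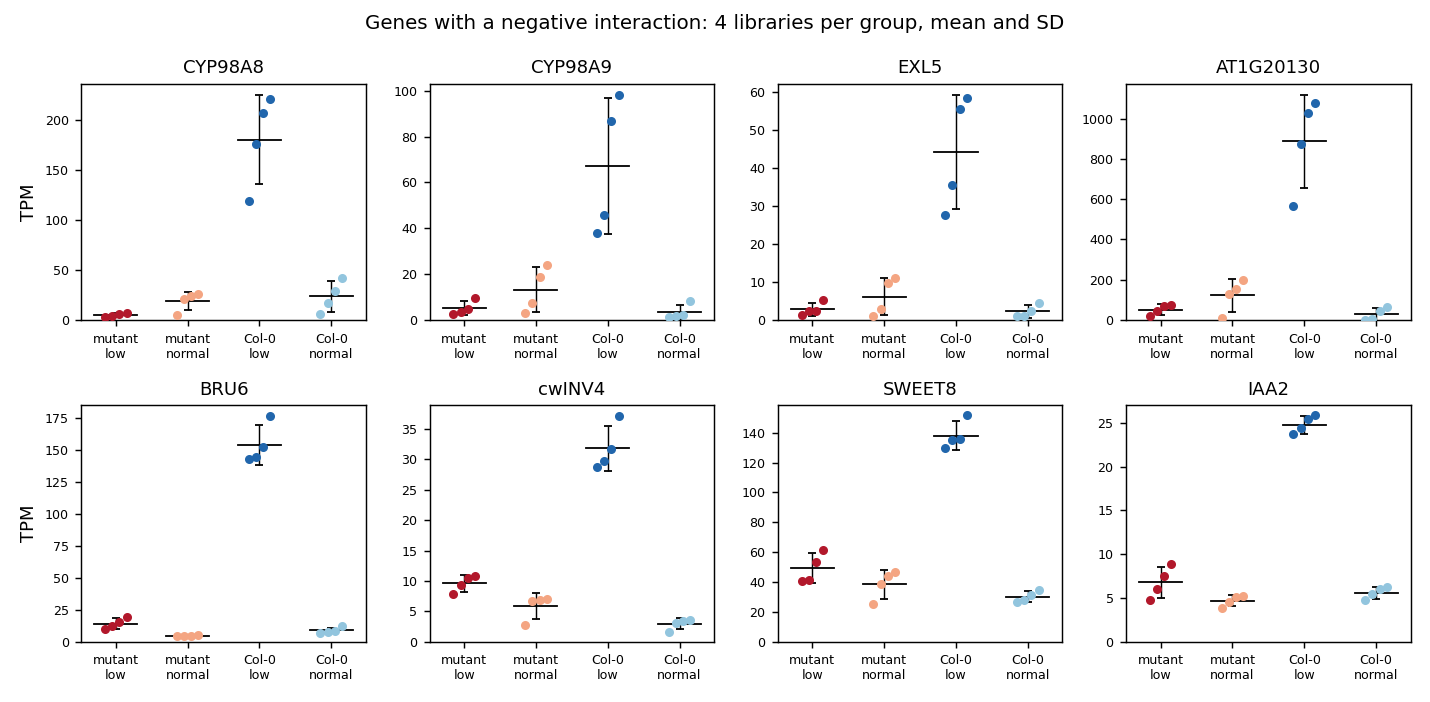
TPM of 8 genes with a negative interaction in each library (points), with the mean (long bar) and SD of 4 libraries for the bhlh89,91 mutant in low and normal light and Col-0 in low and normal light. In every panel the 4 Col-0 low light libraries lie above all 12 others, for example 119 to 220 TPM for CYP98A8 against at most 41.8 TPM elsewhere.

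Of 13 tested genes of the list for sporopollenin, the polymer of the outer pollen wall, SWEET8 alone was called, and the median was 0.141. SWEET8 is a sugar exporter rather than an enzyme of the polymer, and it is counted again under sugar transport. It belongs to the study's own selection from these libraries, so its call is not independent of that. Low light lowered 10 of the members in bhlh89,91 and 9 in Col-0, against 16.7% and 29.9% of all tested genes. Of 8 tapetum markers, some of them sporopollenin enzymes such as MS2 and ACOS5, 2 were called negative, ATA20 and A7. Low light lowered 6 of the 8 in bhlh89,91 and 4 in Col-0, where it raised 2. The summed level of the 8 was 1940 to 3270 TPM in bhlh89,91 in low light, 2660 to 4110 TPM in bhlh89,91 in normal light, 3820 to 4030 TPM in Col-0 in low light and 2410 to 3620 TPM in Col-0 in normal light. ATA20 and A7 weigh heavily on that sum. In Col-0 they averaged 1440 and 1060 TPM in low light and 537 and 427 TPM in normal light. ATA20, a glycine-rich protein, had −1.55 ± 0.304 (adjusted p = 0.00215), and A7 had −1.32 ± 0.383 (adjusted p = 0.0209). The part of these markers in the negative class was not tested. Of 17 tapetal regulators, 2 were called positive (11.8%, against 12.8% of all tested genes) and none negative. They were the MYB factor TDF1 and the glutaredoxin ROXY1, at 0.71 ± 0.228 and 1.28 ± 0.363 (adjusted p = 0.0334 and 0.019). Of 22 genes of pollen after mitosis, 12 to 16 averaged under 1 TPM in each group, and their summed level was 21.5 to 29.8 TPM in bhlh89,91 in low light, 26.0 to 28.7 TPM in bhlh89,91 in normal light, 40.0 to 54.1 TPM in Col-0 in low light and 24.4 to 76.8 TPM in Col-0 in normal light.

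Sugar transport was a further negative group, with 9 of 20 tested members negative (45.0%) and none positive. SWEET8 (AT5G40260), a plasma membrane sugar exporter needed for pollen wall patterning, had 40.8, 41.6, 53.6 and 61.2 TPM in bhlh89,91 in low light and 25.0, 38.9, 44.2 and 46.7 TPM in bhlh89,91 in normal light. It had 130, 135, 136 and 152 TPM in Col-0 in low light and 26.6, 28.2, 31.6 and 34.8 TPM in Col-0 in normal light. The Col-0 low light libraries again formed a group of their own, and the interaction was −1.83 ± 0.229 (adjusted p = 0.000108). SWEET8 is also in the study's selection of male fertility genes from these libraries, so its call is not independent of that choice. STP2, a hexose importer of young microspores, had −3.10 ± 0.472 (adjusted p = 0.000411). The sucrose exporters SWEET12 and SWEET11 had −1.58 ± 0.223 and −1.23 ± 0.241 (adjusted p = 0.00024 and 0.00218). The cell wall invertase cwINV4, which splits sucrose outside the cell, averaged 9.59 ± 1.37 TPM in bhlh89,91 in low light and 5.86 ± 2.08 TPM in bhlh89,91 in normal light, against 31.8 ± 3.72 TPM in Col-0 in low light and 2.94 ± 0.915 TPM in Col-0 in normal light (SD, n = 4 each). It rose in both genotypes, and its interaction was −2.72 ± 0.339 (adjusted p = 0.000108).

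Among auxin-related genes, BRU6 and the repressor IAA2 rose in both genotypes, with a negative interaction. BRU6 (AT4G37390), an enzyme of the GH3 family that conjugates auxin to amino acids, had 10.1, 12, 15.1 and 19.5 TPM in bhlh89,91 in low light and 4.41, 4.64, 4.85 and 5.14 TPM in bhlh89,91 in normal light. Col-0 had 143, 144, 152 and 176 TPM in low light and 7.11, 7.86, 8.33 and 12.2 TPM in normal light. Low light and normal light did not overlap in either genotype, and the interaction was −2.51 ± 0.27 (adjusted p = 5.18e-05), from a rise of 1.60 in bhlh89,91 and of 4.11 in Col-0. Of 17 Aux/IAA repressors, 8 were called negative and 1 positive (47.1% and 5.88%), with a median of −0.418. IAA2 had −1.59 ± 0.228, IAA19 −1.76 ± 0.273 and IAA14 −1.65 ± 0.394 (adjusted p = 0.000272, 0.000462 and 0.00712). IAA19 and IAA14 rose in Col-0 and had no called light response in bhlh89,91, at −0.33 and 0.34 (adjusted p = 0.208 and 0.37). Outside the auxin genes, AT2G28680 (−2.86) and AT5G62240 (−2.15) were named from the class that rose in both genotypes.

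Of 9 evening clock genes, all rose with low light in both genotypes, and 4 were called negative (44.4%). The study's methods do not give the time of day at harvest, and its part in these values was not tested. FKF1, a blue light receptor of the F-box family, averaged 11.4 ± 1.28 TPM in bhlh89,91 in low light and 0.661 ± 0.0923 TPM in bhlh89,91 in normal light, against 26.2 ± 4.63 TPM in Col-0 in low light and 0.569 ± 0.146 TPM in Col-0 in normal light (SD, n = 4 each). Its rise was 4.13 in bhlh89,91 and 5.52 in Col-0, and the interaction −1.39 ± 0.268 (adjusted p = 0.00189). The pseudo-response regulator PRR3 had −0.99 ± 0.204 (adjusted p = 0.00286). F-box proteins as a family, which pick substrates for ubiquitination, had 55 of 266 tested members called negative (20.7%) and 1 positive, or 35 negative without normal light library 3 of bhlh89,91. Purple acid phosphatases had 10 negative and 2 positive of 24 (41.7% and 8.33%), led by PAP11 at −3.29 ± 0.629 (adjusted p = 0.00184). Ketoacyl-CoA synthases, which elongate fatty acids for waxes and coat lipids, had 6 negative of 18 (33.3%), with KCS21 at −3.76 ± 0.754 and KCS15 at −2.84 ± 0.53 (adjusted p = 0.00246 and 0.00158).

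The positive class was led in breadth by genes of cell division and DNA replication. Of 32 replication genes, 26 were called positive (81.2%) and none negative, with a median of 0.611. This family was added after the values were seen, so its share is not independent of them. Of 20 cell cycle genes, 15 were positive (75.0%) and none negative, with a median of 0.424. PCNA1 (AT1G07370), the sliding clamp of DNA polymerase, had 56.8, 58.4, 59.8 and 60.9 TPM in bhlh89,91 in low light and 56.2, 56.7, 67.7 and 68.7 TPM in bhlh89,91 in normal light. It had 26.1, 28.0, 29.1 and 29.9 TPM in Col-0 in low light and 66.9, 68.3, 71.8 and 76.7 TPM in Col-0 in normal light. Low light thus left Col-0 with the lowest levels of any group, while the mutant's light conditions overlapped, and the interaction was 1.27 ± 0.0948 (adjusted p = 4.34e-06).

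MCM2 (AT1G44900), a subunit of the replicative helicase, had 34.2, 37.6, 38.4 and 38.8 TPM in bhlh89,91 in low light and 34.4, 36.3, 38.7 and 43.2 TPM in bhlh89,91 in normal light. Col-0 had 22.0, 22.2, 24.8 and 24.9 TPM in low light and 39.3, 44.3, 47.6 and 48.5 TPM in normal light. The pattern was that of PCNA1 at a smaller size, 0.92 ± 0.0953 (adjusted p = 3.59e-05). The helicase subunits MCM3, MCM5 and MCM6 had 0.98 ± 0.0913, 0.84 ± 0.0631 and 0.97 ± 0.0851 (adjusted p = 1.33e-05, 4.34e-06 and 1.16e-05). Precursor supply moved with them, as DUT1, a dUTP hydrolase, had 1.32 ± 0.145 and TSO2, the small subunit of ribonucleotide reductase, 1.14 ± 0.147 (adjusted p = 5.36e-05 and 0.000126). RPA70B, which coats single-stranded DNA, had 1.05 ± 0.0962, ORC1A of the origin recognition complex 1.04 ± 0.217, and the histone methyltransferase ATXR6 1.09 ± 0.264 (adjusted p = 1.18e-05, 0.00323 and 0.0078).

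Histone genes had 26 of 43 tested members positive (60.5%) and none negative, with no interaction DEG among them and a median of 0.461. Proteins of the ribosome had 130 of 279 positive (46.6%) and 10 negative, with a median of 0.24, so that many small differences were called. Meiosis genes had 5 of 24 positive (20.8%) and photosystem genes 13 of 44 (29.5%), neither with a negative call. The photosystem count was 6 to 16 over the alternatives, at 6 without low light library 1 of bhlh89,91 or low light library 2 of Col-0. It was 7 or 8 without low light library 4 or normal light library 2 or 4 of bhlh89,91, or without low light library 4 or normal light library 3 of Col-0. Meristem markers, which mark dividing tissue, had 2 of 7 tested genes positive, and their summed level was 110 to 121 TPM in bhlh89,91 in low light, 132 to 161 TPM in bhlh89,91 in normal light, 103 to 120 TPM in Col-0 in low light and 131 to 151 TPM in Col-0 in normal light. The part of these markers in the division genes was not tested.

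Promoter sequences are shown for 4 replication genes that held an E2F-type motif, TTTCCCGC or TTTGGCGC on either strand, in the 300 bases before the gene start, and for CYP98A9 and SHT of the phenolamide group, searched for the E-box CANNTG that bHLH proteins bind. E2F factors control S phase genes in plants. Capitals mark a match, each sequence is the last 150 bases before the annotated start on the gene's strand, and coordinates are those of RefSeq TAIR10.1. The positions are chr1:16970064-16970213 (+) for MCM2, chr2:3527501-3527650 (−) for MCM5, chr5:18010668-18010817 (−) for MCM6, chr4:8422023-8422172 (+) for ORC1A, chr1:28015895-28016044 (+) for CYP98A9 and chr2:8261986-8262135 (−) for SHT.
MCM2: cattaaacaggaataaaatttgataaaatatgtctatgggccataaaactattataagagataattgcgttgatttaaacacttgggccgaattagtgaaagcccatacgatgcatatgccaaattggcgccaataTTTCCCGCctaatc
MCM5: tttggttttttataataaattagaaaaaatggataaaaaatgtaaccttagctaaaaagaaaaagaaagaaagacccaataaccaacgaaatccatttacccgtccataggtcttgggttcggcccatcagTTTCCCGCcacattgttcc
MCM6: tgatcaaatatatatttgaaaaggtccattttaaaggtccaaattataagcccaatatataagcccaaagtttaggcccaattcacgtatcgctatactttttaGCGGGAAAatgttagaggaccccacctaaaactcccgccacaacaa
ORC1A: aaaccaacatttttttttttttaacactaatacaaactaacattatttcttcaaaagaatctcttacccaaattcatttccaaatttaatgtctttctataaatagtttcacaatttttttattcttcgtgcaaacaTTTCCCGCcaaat
CYP98A9: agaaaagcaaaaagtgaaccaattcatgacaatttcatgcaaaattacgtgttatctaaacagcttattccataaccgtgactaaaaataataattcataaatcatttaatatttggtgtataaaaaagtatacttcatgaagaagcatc
SHT: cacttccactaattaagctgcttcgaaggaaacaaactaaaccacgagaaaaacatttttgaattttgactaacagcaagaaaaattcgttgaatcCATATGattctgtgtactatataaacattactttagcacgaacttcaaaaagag
The E2F-type match began 14 bases before the start of MCM2, 19 before MCM5, 46 before MCM6 and 13 before ORC1A. Either motif was present in 12 of 52 promoters of the cell cycle and replication lists (23.1%), in 8 of 123 positive interaction DEGs (6.5%) and in 237 of 20322 tested genes with a window (1.17%). All 12 of those list genes were called positive at an adjusted p under 0.05, where the lists had 15 of 20 and 26 of 32 positive. These motifs were searched after the values were seen, and a match is a description of the letters alone. CANNTG was present in 59.9% of negative interaction DEGs, 61.8% of positive ones and 62.1% of all tested genes, and in 71.0% of the 62 genes that rose in Col-0 and fell in bhlh89,91.

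**Figure D3:**
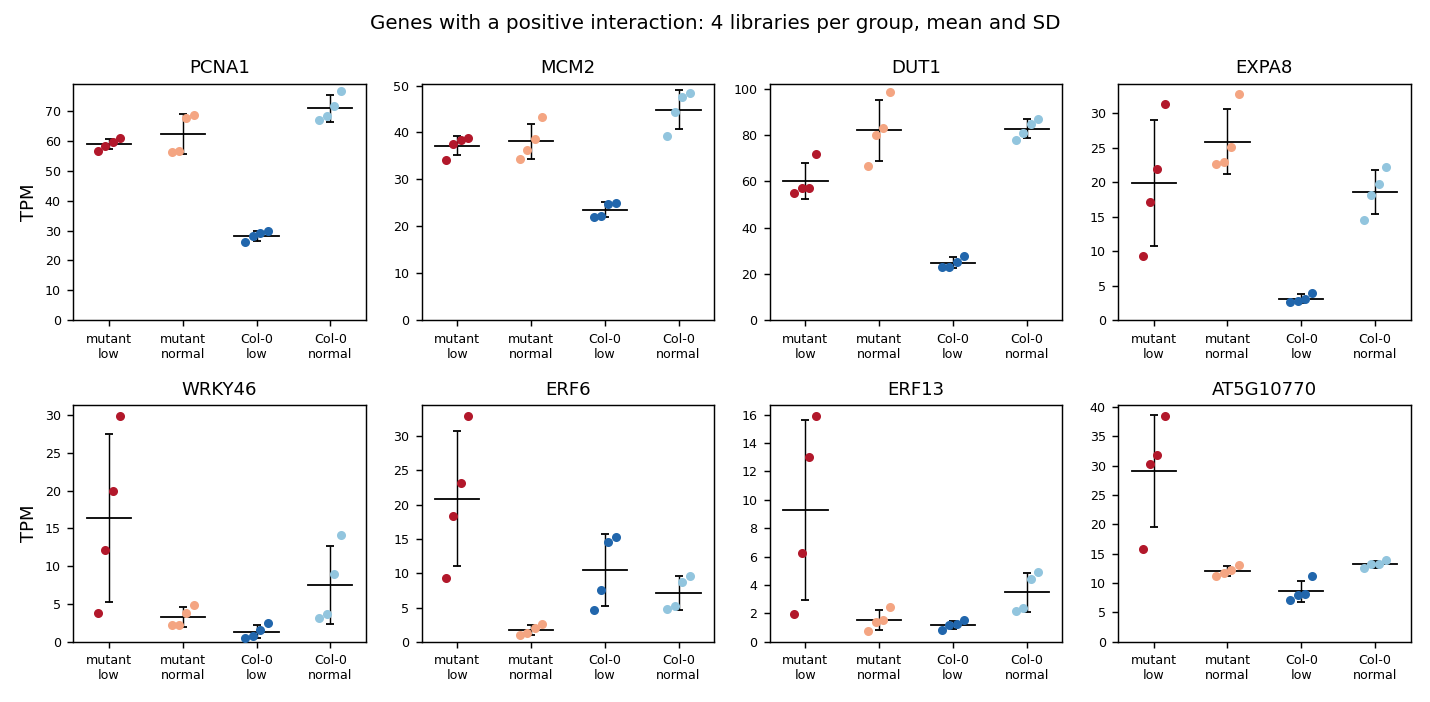
TPM of 8 genes with a positive interaction in each library (points), with the mean (long bar) and SD of 4 libraries for the bhlh89,91 mutant in low and normal light and Col-0 in low and normal light. PCNA1, MCM2, DUT1 and EXPA8 were lowest in Col-0 in low light, whereas WRKY46, ERF6, ERF13 and AT5G10770 were highest on average in bhlh89,91 in low light.

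Among the positive genes named here, CBF2, WRKY46 and ERF13, fast-responding stress regulators, had the largest values. WRKY46 (AT2G46400), a transcription factor of defence and drought responses, had 3.78, 12.1, 20 and 29.8 TPM in bhlh89,91 in low light and 2.21, 2.27, 3.77 and 4.91 TPM in bhlh89,91 in normal light. It had 0.542, 0.748, 1.59 and 2.42 TPM in Col-0 in low light and 3.14, 3.71, 8.98 and 14.1 TPM in Col-0 in normal light. The low light mutant libraries were widely spread, and the lowest of them, library 4, overlapped the normal light mutant group. The interaction was 4.84 ± 0.888 (adjusted p = 0.00143), and 5.16 without library 4 (adjusted p = 0.000358). ERF6 (AT4G17490), an ethylene response factor, had 9.33, 18.4, 23.1 and 32.9 TPM in bhlh89,91 in low light and 1.03, 1.31, 2.0 and 2.6 TPM in bhlh89,91 in normal light. It had 4.63, 7.59, 14.5 and 15.3 TPM in Col-0 in low light and 4.75, 5.29, 8.79 and 9.59 TPM in Col-0 in normal light. The mutant's light conditions did not overlap and those of Col-0 did, with an interaction of 3.05 ± 0.619 (adjusted p = 0.00267).

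Of 23 tested genes of rapid ethylene response (ERF) and cold-induced (CBF) factors, 11 were positive (47.8%) and 1 negative (4.35%), with a median of 0.401. The positive count was 6 with limma-voom, and 11 with a median of 0.333 without low light library 4 of bhlh89,91. ERF13 had 4.15 ± 0.747, ERF5 3.01 ± 0.701, ERF11 3.16 ± 0.916, CBF2 5.13 ± 1.13 and DREB1A 2.69 ± 0.623 (adjusted p = 0.00126, 0.00628, 0.0209, 0.0044 and 0.00604). CBF2 had 2.3 to 12.2 TPM in bhlh89,91 in low light and only 0.0685 to 0.411 TPM in bhlh89,91 in normal light, near the floor. It had 1.88 to 2.35 TPM in Col-0 in low light and a wide 0.405 to 4.63 TPM in Col-0 in normal light. CBF2 and DREB1A are near-identical neighbours whose reads may be shared. The summed level of the group differed between libraries of bhlh89,91 in low light, from 639 TPM in library 4 to 918 TPM in library 1, and was 567 to 606 TPM in bhlh89,91 in normal light, 675 to 729 TPM in Col-0 in low light and 622 to 688 TPM in Col-0 in normal light. Among 45 WRKY factors 6 were positive (13.3%) and 5 negative (11.1%), both near the shares of all tested genes, and the negative count was 3 without any 1 of normal light libraries 1 and 2 of Col-0 and of low light library 2 and normal light libraries 2 and 3 of bhlh89,91. The mitochondrial ATPase BCS1 had 3.23 ± 0.587 and the kinase MKK9 1.77 ± 0.375 (adjusted p = 0.00135 and 0.00348).

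**Figure D4:**
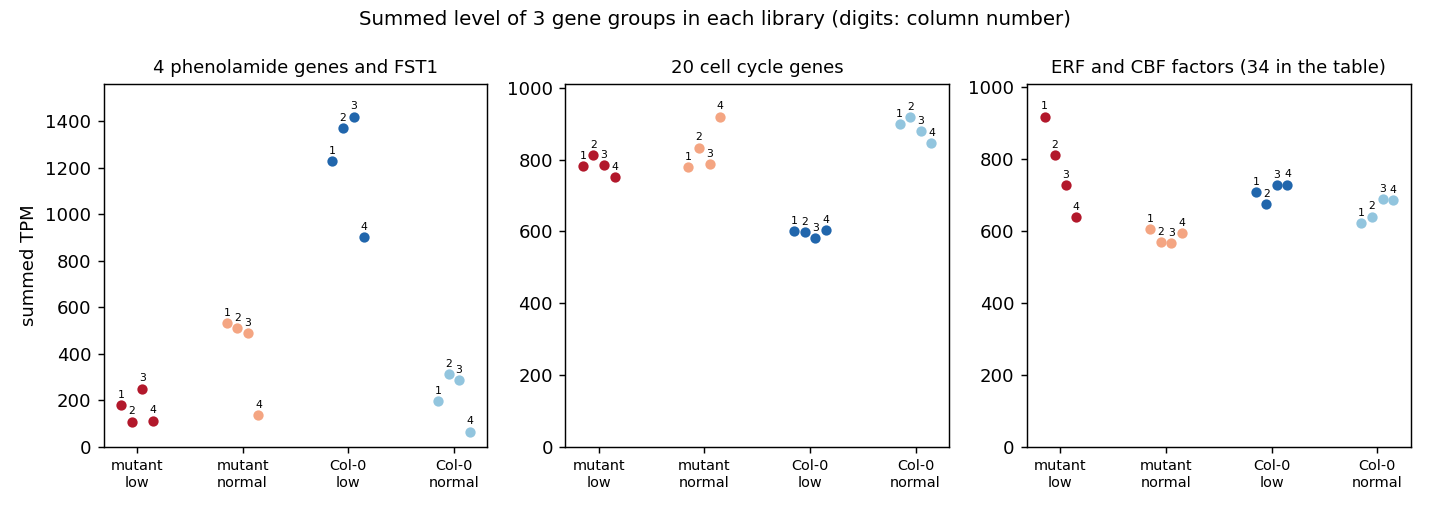
Summed TPM of 4 phenolamide genes and FST1, of 20 cell cycle genes and 34 ERF and CBF factors in each library of the bhlh89,91 mutant and Col-0 in low and normal light, with the file column number beside each point. Library 4 lies low for the phenolamide genes and FST1 in bhlh89,91 in normal light (137 TPM) and in Col-0 in normal light (65.3 TPM), while the cell cycle sum is 751 to 813 TPM in bhlh89,91 in low light and 581 to 603 TPM in Col-0 in low light.

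Expansins, which loosen cell walls, and glucosinolate genes also had positive calls. Of 14 expansins, 5 were positive (35.7%) and none negative, and 8 were positive without low light library 4 of bhlh89,91. EXPA8 (AT2G40610) had 9.35, 17.1, 21.9 and 31.3 TPM in bhlh89,91 in low light and 22.7, 22.9, 25.1 and 32.8 TPM in bhlh89,91 in normal light. It had 2.59, 2.77, 3.11 and 3.99 TPM in Col-0 in low light and 14.5, 18.1, 19.7 and 22.2 TPM in Col-0 in normal light. Low light lowered it in Col-0 without overlap, and the mutant's light conditions overlapped, giving 2.21 ± 0.384 (adjusted p = 0.000985). EXPA6 had 1.03 ± 0.0923 and the xyloglucan endotransglucosylase XTH7 1.30 ± 0.29 (adjusted p = 1.16e-05 and 0.00476). The aspartyl protease AT5G10770 had 15.8 to 38.5 TPM in bhlh89,91 in low light, 11.2 to 13.1 TPM in bhlh89,91 in normal light, 7.15 to 11.2 TPM in Col-0 in low light and 12.5 to 14.0 TPM in Col-0 in normal light, with an interaction of 1.92 ± 0.275 (adjusted p = 0.000274).

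Of 12 glucosinolate genes, which make sulphur-containing defence compounds, 7 were positive (58.3%) and none negative, with SOT16 at 1.04 ± 0.233, CYP83A1 at 1.57 ± 0.436 and CYP79B2 at 1.28 ± 0.369 (adjusted p = 0.00474, 0.0166 and 0.02). Jasmonate genes lay mostly above 0, 19 against 3 below, with a median of 0.582. Of 22, 6 were positive (27.3%) and 1 negative (4.55%). LOX2, which starts jasmonate synthesis, had 0.95 ± 0.156 (adjusted p = 0.000655), and JAR1, which conjugates jasmonate to isoleucine, had −1.70 ± 0.263 (adjusted p = 0.000447). The positive jasmonate count was 11 without low light library 2 of Col-0. Without the 3 normal light libraries lowest in the phenolamide and pollen coat sums, 3 jasmonate, 3 glucosinolate and 3 meiosis genes were positive. Other positive genes named by the rule were CYP709B2 (2.87), AT4G18425 (2.67), AT4G11190 (2.23), AT1G21520 (2.16), AT3G54450 (1.95), the potassium channel KAT2 (1.56) and the lectin JAL23 (1.53).

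**Figure D5:**
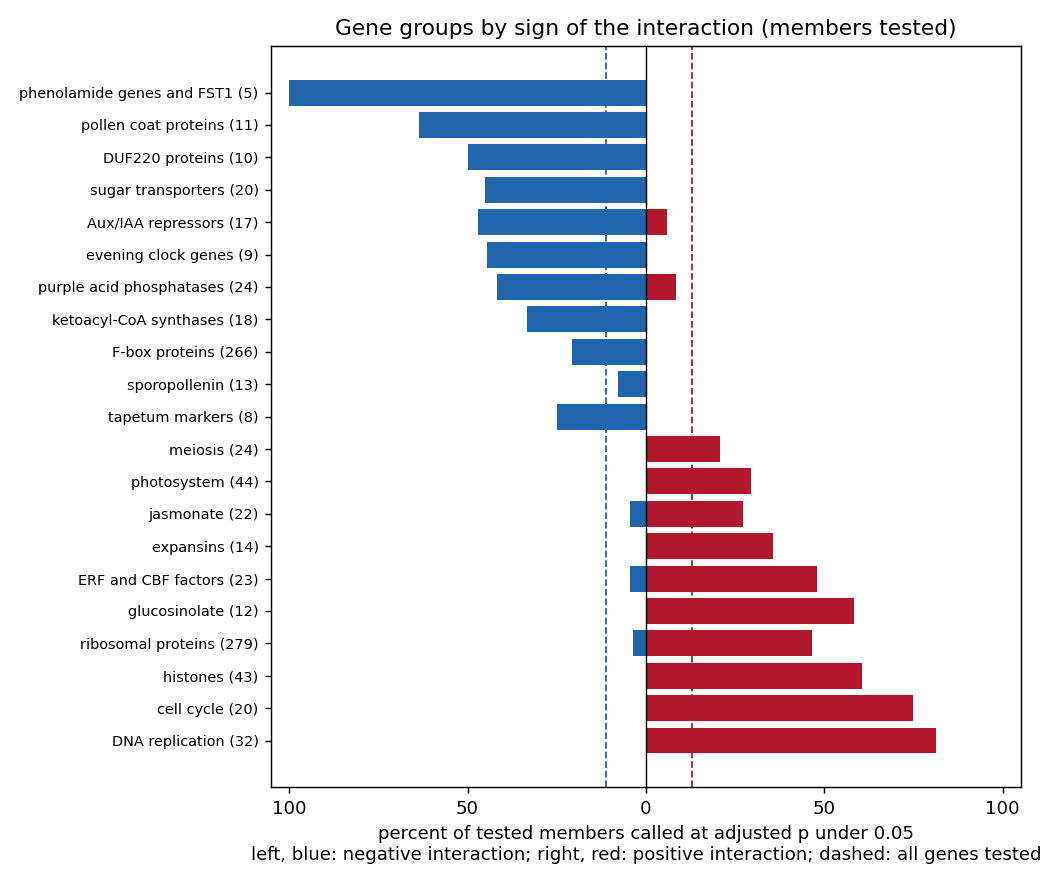
Percent of the tested members of each gene group called at an adjusted p under 0.05, with negative calls to the left and positive calls to the right of 0, and dashed lines at 11.3% and 12.8% for all tested genes. The group of phenolamide genes and FST1 reaches 100% on the negative side and the replication group 81.2% on the positive side. All members of the former are in the study's own selection from these libraries, and the replication family was added after the values were seen. So were the histones, ribosomal proteins, expansins, ERF and CBF factors, DUF220 proteins, phosphatases, ketoacyl-CoA synthases and F-box proteins.

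Some negative interaction DEGs were neighbours on the chromosomes. With gene order from TAIR10.1, 47 of 362 placed negative genes (13.0%) had another of the same sign within 2 tested genes, against 4 of 123 positive ones (3.25%), though the negative list is longer and no test was made. There were 3 runs of 3 consecutive tested genes, namely AT1G20120 to AT1G20132 (chr1:6975339-6983627), EXL5 with EXL6 and BGLU20 (chr1:28504041-28514284), and AT3G50560 to AT3G50580 (chr3:18761006-18769519).

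Single libraries weighed differently on the classes. Of the 364 negative interaction DEGs, 243 kept their call in all 16 fits that left out 1 library, as did 51 of the 123 positive ones. Without low light library 4 of bhlh89,91 the positive count was 205, and without normal light library 3 of bhlh89,91 it was 80. With both bhlh89,91 libraries of column 4 left out, 526 negative and 215 positive genes were called.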

How the data were processed

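The authors mapped the reads with Salmon (named in the submitters' processing notes) to the AtRTD2 transcriptome and used tximport to obtain gene values from length-scaled TPM. They deposited estimated counts per gene and library, and the deposited TPM come from the same step. The genome build behind AtRTD2 is not given in the sources used here. File columns name the group and a number from 1 to 4, while the labels number replicates otherwise, so columns were matched to groups only. The labels call the 4 libraries of a group biological replicates without saying how plants were pooled, so p-values measure the spread between these samples.

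Estimated counts were rounded to whole numbers. Genes that reached 1 CPM in 4 or more libraries were tested with edgeR 4.0.16 in R 4.3.3 (TMM factors 0.975 to 1.02, 1 mean per group, quasi-likelihood F test, 12 residual degrees of freedom, Benjamini-Hochberg adjustment over 20471 genes). Each SE was derived from the log2FC and its F statistic, as the size of that log2FC over root F. TPM are shown as values and were tested only as alternatives, with limma 3.58.1, and DESeq2 1.42.0 was another alternative. The same fit gave the light response in each genotype and the genotype difference in each light condition.

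Named genes are, among interaction DEGs that averaged 5 CPM or more in 1 group and kept their call in each of 16 fits without 1 library, the 12 lowest and the 12 highest, the 4 largest of each response class with at least 10 such genes, the 3 bHLH genes, and at most 6 called members of a gene list. Members and lists were chosen with earlier results of these data known. The families of replication genes, histones, ribosomal proteins, expansins, F-box, DUF220, WRKY, ERF and CBF factors, phosphatases, ketoacyl-CoA synthases, GDSL lipases and lipid transfer proteins, and the E2F-type motifs, were added after the values were seen. Lists were matched by name and locus to the RefSeq table of TAIR10.1, which holds 20323 of the tested genes, and promoters were read from that genome.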

Additional observations from a re-analysis of the deposited data

Results flagged for a closer look

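Of 344 values of a named gene or gene group in a group of 4 libraries, 22 had 1 library far from the other 3, by Dixon's test at the 95% level. Chance alone flags about 1 in 20 groups. In bhlh89,91 in low light, the library apart held 71.6 TPM of DUT1 and 0.58 TPM of FST1. In bhlh89,91 in normal light it was the lowest library for the sum of 4 phenolamide genes and FST1 (137 TPM), AT1G68875 (38.7 TPM), KAT2 (7.95 TPM), cwINV4 (2.75 TPM), AT5G62240 (0.74 TPM), STP2 (9.47 TPM), TSM1 (94.6 TPM), JAR1 (30.5 TPM) and KCS15 (23.0 TPM), and the highest for AT3G15670 (0.567 TPM) and CYP709B2 (1.55 TPM). In Col-0 in low light it was the highest for JAL23 (50.3 TPM) and AT5G62240 (6.28 TPM) and the lowest for TSM1 (562 TPM). In Col-0 in normal light it was the highest for AT5G44265 (3.63 TPM), CYP98A9 (8.09 TPM), AT1G23580 (2.16 TPM), EXL4 (83.5 TPM) and EXL6 (23.8 TPM), and the lowest for SWEET11 (9.2 TPM).

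The light response differed between the genotypes, by edgeR's test of the interaction itself, in 364 negative and 123 positive interaction DEGs and in each of 74 named genes. Among the negative genes, interaction log2FCs were −7.51 for AT5G44265, −6.97 for AT1G23580, −6.29 for EXL4, −6.22 for AT1G20130, −6.09 for AT1G26710, −5.91 for AT3G15670, −5.86 for TET11, −5.70 for CYP98A9, −5.65 for EXL6, −5.55 for CYP735A2, −5.53 for AT1G68875, −5.41 for IRT1, −5.40 for AT4G37900, −5.39 for AT1G06990, −5.39 for EXL5, −4.95 for BGLU20, −4.86 for AT2G35730, −4.84 for CYP98A8, −4.63 for FST1, −4.32 for AT3G26820, −3.83 for SHT, −3.66 for TSM1, −3.76 for KCS21, −2.84 for KCS15 and −3.29 for PAP11. Other negative genes were STP2 (−3.10), AT2G28680 (−2.86), cwINV4 (−2.72), BRU6 (−2.51), AT5G62240 (−2.15), SWEET8 (−1.83), IAA19 (−1.76), JAR1 (−1.70), IAA14 (−1.65), IAA2 (−1.59), SWEET12 (−1.58), ATA20 (−1.55), FKF1 (−1.39), SWEET11 (−1.23) and PRR3 (−0.99). Positive regulators were CBF2 (5.13), WRKY46 (4.84), ERF13 (4.15), BCS1 (3.23), ERF11 (3.16), ERF6 (3.05), ERF5 (3.01), DREB1A (2.69) and MKK9 (1.77). Positive division genes were DUT1 (1.32), PCNA1 (1.27), TSO2 (1.14), ATXR6 (1.09), RPA70B (1.05), ORC1A (1.04), MCM3 (0.98), MCM6 (0.97), MCM2 (0.92) and MCM5 (0.84). The remaining positive genes were CYP709B2 (2.87), AT4G18425 (2.67), AT4G11190 (2.23), EXPA8 (2.21), AT1G21520 (2.16), AT3G54450 (1.95), AT5G10770 (1.92), CYP83A1 (1.57), KAT2 (1.56), JAL23 (1.53), XTH7 (1.30), CYP79B2 (1.28), SOT16 (1.04), EXPA6 (1.03) and LOX2 (0.95).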

How the results depend on the processing

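Of 77 named genes that were recomputed, 74 had a call. Of 2072 values recomputed for these, 2051 kept the call, 21 lost it and none reversed. A7, TDF1 and ROXY1, named above with calls, were not among the genes recomputed. EXL4 lost its call in limma-voom and in 5 fits without 1 library, and the others that lost a call were AT3G54450, ERF11, CYP83A1, CBF2, DREB1A, XTH7 and CYP79B2, in limma fits, or for CYP83A1 and CYP79B2 also without 3 normal light libraries (chosen after seeing the data). The count of positive interaction DEGs depended most on the processing, at 198 with DESeq2, 75 with limma-voom, 67 with limma-trend on log2(TPM + 1), 59 with the same and no filter, and 215 without both bhlh89,91 libraries of column 4 (chosen after seeing the data). With an adjusted p under 0.05 it was 276 at the same fold limit and 2624 with none, and negative ones numbered 547 and 2312. At an adjusted p under 0.05, negative genes outnumbered positive ones with limma-trend on log2(TPM + 0.1) (2414 and 2152), on log2(TPM + 1) (2546 and 2137) and on the same with no filter (2372 and 1939). Leaving out 1 library at a time gave 281 to 476 negative and 80 to 205 positive interaction DEGs, and at an adjusted p under 0.05 it gave 1863 to 2618 negative and 2090 to 2728 positive genes. With responses called at an adjusted p under 0.01 and a log2FC of at least 1, the class that rose in Col-0 and fell in bhlh89,91 held 6 genes and the class that rose in both held 8, while the positive class that fell in both held 6 and that with opposite responses 1. Of 1134 values of gene lists (counts and medians), 1104 stayed within 1.5 times or 1 SD over the members and 30 moved. The cause of these differences was not tested. The number in the column name is not the replicate number of the labels, so the numbers were not taken as pairs. Deviations from the group means correlated over 0.1 in 8 of 24 pairs of columns with the same number (−0.228 to 0.283). This count does not decide whether such columns belong together, which was not tested. With the column number as a replicate block (chosen after seeing the data), 377 negative and 107 positive interaction DEGs were called. None of the 77 recomputed genes lost a call in that setting. Depth was even across libraries, and genes under 1 CPM were not tested.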
